A study of Mus musculus with 6 samples.

Results

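The endoplasmic reticulum (ER) secretory pathway was examined through 51 genes whose symbols mark them as parts of protein translocation, folding in the ER and vesicle transport between the ER and the Golgi. They were taken by name from the 5674 genes that both deposited tables listed: symbols starting with Sec61, Sec62, Sec63, Sec11, Sec13, Sec22, Sec23, Sec24, Sec31, Srp, Ssr, Spcs, Tmed, Pdia or Kdelr, without Srpk and Srpx genes, together with Copa, Copb1, Copb2, Cope, Copg1, Copz1, Ostc, Hspa5 and Ern2. One of them, Ssrp1, was matched by its name only and codes for a chromatin factor. Single epithelial cells of the mouse jejunum were measured with MARS-seq, in which cells are sorted into wells and a unique molecular identifier (UMI) tags the 3' end of each mRNA molecule. The labels name 3 mice, 120 days old and of mixed CD-1 and C57BL/6 background, and give no genotype and no treatment. Each mouse gave an anterior sample (piece 3 of 12 equal pieces of the small intestine) and a posterior sample (piece 7), and live epithelial cells (EpCAM-positive, without DAPI stain) were taken by flow sorting from a 1:1 mixture of villus and crypt. The 6 samples are therefore not 6 animals: regions and cell classes were compared over 3 mice.

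Secretory proteins are recognised by the signal recognition particle as they leave the ribosome, are threaded through the Sec61 channel and lose their signal peptide to the signal peptidase. Chaperones and disulfide isomerases fold them in the ER lumen. COPII vesicles then carry them to the Golgi, COPI vesicles bring escaped ER proteins back, and KDEL receptors catch those proteins by their tail sequence. Goblet cells secrete mucins, enteroendocrine cells secrete peptide hormones, Paneth cells secrete antimicrobial defensins, and absorptive enterocytes also use the pathway, for lipoprotein particles and brush border enzymes. Ern2 codes for IRE1 beta, a sensor of ER stress known from mucus-secreting epithelia.

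The values held 2043 cells, 1028 anterior and 1015 posterior, with 1624320 to 3141654 UMIs per sample over the shared genes. Cells were clustered without the 51 genes and without the related pathway genes (164 genes held out in all), and classes were named from markers. The absorptive-like class had 910 cells (201, 352 and 357 in mice 1, 2 and 3), the goblet-like class 612 (510, 51 and 51), the enteroendocrine-like class 115 (89, 16 and 10) and the progenitor-like class 219 (146, 29 and 44). The marker rule that named the other classes put a further cluster under Paneth. Its median log2 ratio was 2.94 over the Paneth, 2.54 over the goblet and 2.16 over the enteroendocrine list. The name Paneth was not used, and the cluster is called the defensin-led cluster here. It had 146 cells (105, 26 and 15) and was led by Defa29, Defa30 and Lyz1, but its summed goblet markers (1221, 1032 and 489 CP10K) exceeded its 11 Paneth markers (589.4, 171.6 and 452.6 CP10K) in each mouse. CP10K is UMIs per 10000 UMIs of the cell, averaged over the cells of a class. Depth differed between the classes: the median cell had 6861 UMIs in the absorptive-like, 2174 in the goblet-like, 3543 in the enteroendocrine-like and 919 in the defensin-led cells, so comparisons were repeated in cells of at least 5000 UMIs. Mouse 1 gave 510 of the 612 goblet-like cells. Clusters 4 (goblet-like) and 10 (absorptive-like) came almost wholly from that mouse. Of 2002 cells in these 5 classes, 1547 kept their class when it was set from marker UMIs in place of clusters. These were 607 of the 910 absorptive-like, 577 of the 612 goblet-like, 113 of the 115 enteroendocrine-like and 206 of the 219 progenitor-like cells. Of the 146 defensin-led cells only 44 did, while 39 went to the enteroendocrine, 35 to the goblet and 22 to the progenitor class.

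Of the 51 genes, Ern2 alone separated goblet-like from absorptive-like cells in the test over all cells. The summed level of the 51 genes was 73.2, 62.7 and 61.8 CP10K in goblet-like cells of mice 1, 2 and 3, against 75.3, 58.5 and 52.1 in absorptive-like cells and 77.1, 74.9 and 77.5 in enteroendocrine-like cells. Without Ern2 the goblet-like sums were 52.1, 56.4 and 45.6 (51.4 ± 5.41, SD, n = 3), below every enteroendocrine-like sum (76.4 ± 1.38). Their range overlapped that of the absorptive-like sums of 74.9, 58.5 and 52.1 (61.8 ± 11.8), although within each mouse the goblet-like sum was lower. In cells of at least 5000 UMIs it was lower in mice 1 and 3 but higher in mouse 2 (72.2 against 63.2). Progenitor-like cells had 60.3, 58.0 and 64.3. These sums are a description and were not tested.

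**Figure D1:**
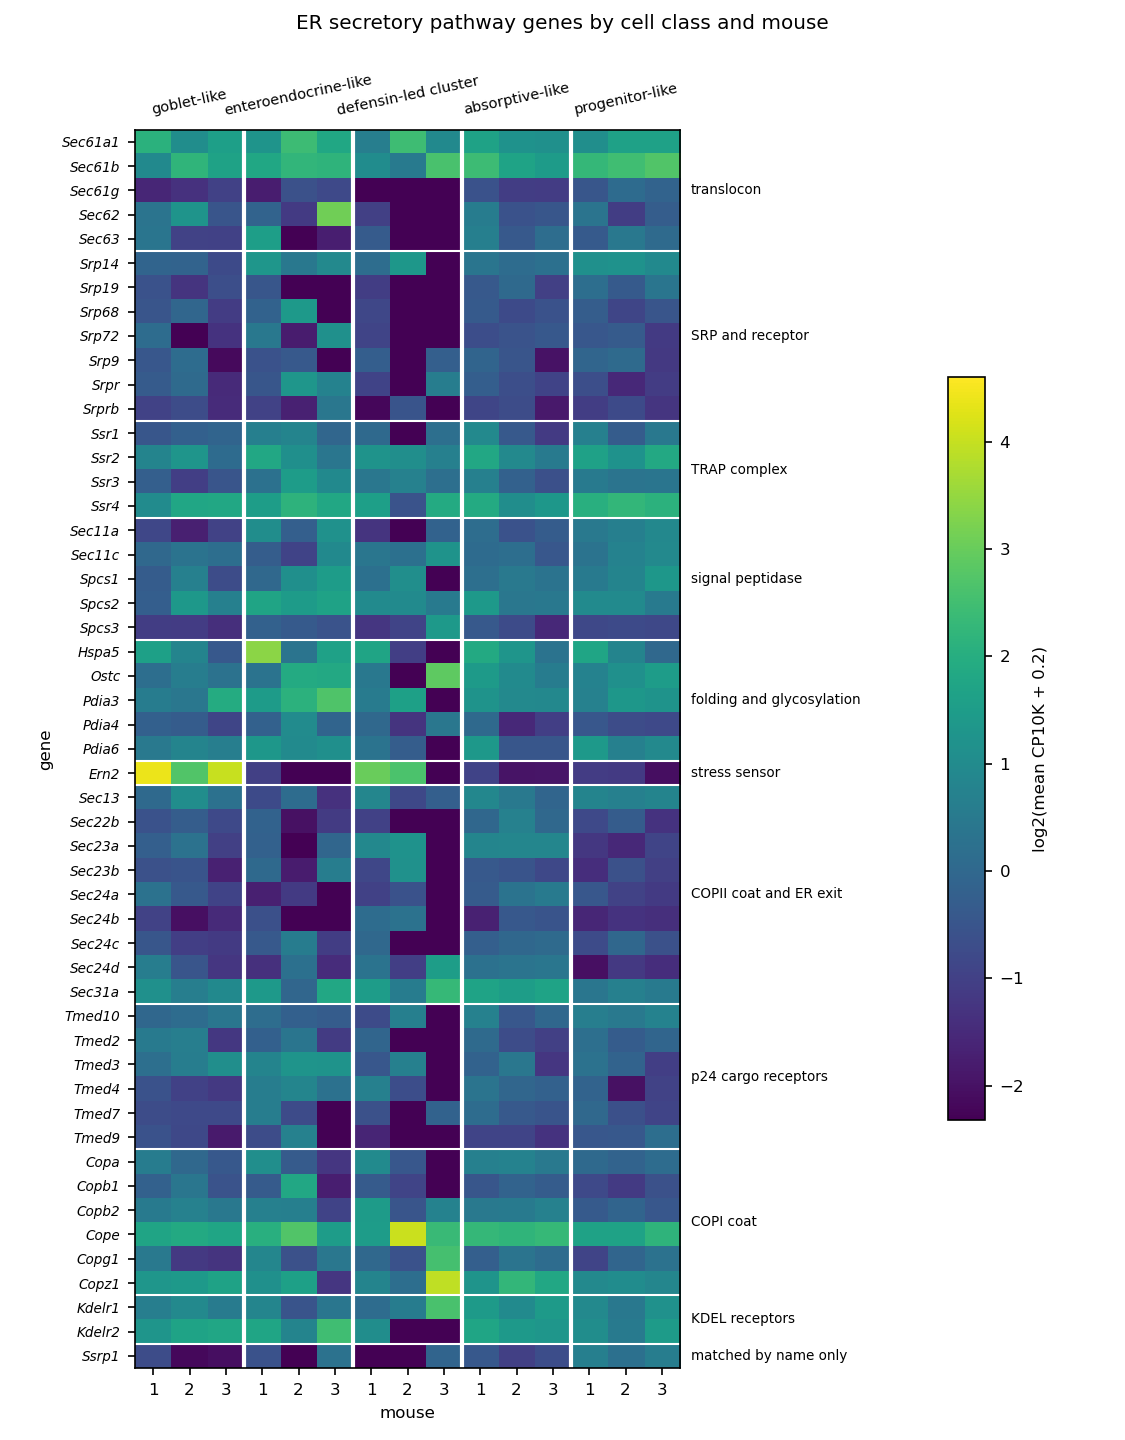
Level of each of the 51 genes in each cell class and mouse (columns), with log2(mean CP10K + 0.2) as colour and genes (rows) grouped by their role. Ern2 is the row that is high in goblet-like cells of all 3 mice, at 21.0, 6.36 and 16.1 CP10K, and near 0 in the absorptive-like and enteroendocrine-like columns.

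Ern2 (ENSMUSG00000030866; GRCm38 chromosome 7, 122169893 to 122186207, minus strand) had 21.0, 6.36 and 16.1 CP10K in goblet-like cells of mice 1, 2 and 3 (14.5 ± 7.47). In absorptive-like cells it had 0.329, 0.0588 and 0.0633 CP10K, and in enteroendocrine-like cells 0.297, 0 and 0. The 2 zeros rest on few UMIs, and a floor of 3 UMIs would be 0.317 and 0.558 CP10K there, a limit that covers counting error only. Progenitor-like cells had 0.270, 0.256 and 0.0402. The goblet-like values of all 3 mice lay above every value of those 3 classes. In the defensin-led cluster Ern2 had 7.87, 6.05 and 0 CP10K, and in mouse 2 the 13 UMIs behind that value came from 1 cell. A UMI of Ern2 was found in 69.4%, 37.3% and 43.1% of goblet-like cells and in 9.95%, 1.7% and 1.96% of absorptive-like cells, although the latter were sampled more deeply (2174 against 6861 UMIs in the median cell).

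Between goblet-like and absorptive-like cells Ern2 rose by 5.32 on the log2(CP10K + 0.2) scale (SE 0.833, limma adjusted p = 0.000274), and between goblet-like and enteroendocrine-like cells by 5.60 (SE 0.833, limma adjusted p = 0.000131). These estimates depend on the pseudocount because the low classes are near 0. Over all 5232 genes tested, 1.99% were higher and 4.47% lower in goblet-like than in absorptive-like cells, and 2.12% and 2.24% against enteroendocrine-like cells. Without mouse 1 the Ern2 estimates were 5.31 and 5.69 and no longer passed (adjusted p = 0.0774 and 0.0648). With classes set from marker UMIs, the goblet minus enteroendocrine estimate for Ern2 was 1.79 and did not pass (limma adjusted p = 0.222). The enteroendocrine class set in that way held 113 cells of the enteroendocrine-like cluster. It also held 97 absorptive-like, 39 defensin-led, 18 unnamed, 10 goblet-like and 5 progenitor-like cells. Among the goblet-like clusters, Ern2 had 22.9 CP10K in cluster 2, led by Sytl2 and Spdef, and 24.5 in cluster 4, led by Fer1l6, but 2.51 in cluster 7, led by Retnlb and Spink4. Cluster 7 was also the deepest of the 3, with 10175 UMIs in the median cell against 1368 in cluster 2 and 2515 in cluster 4.

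**Figure D2:**
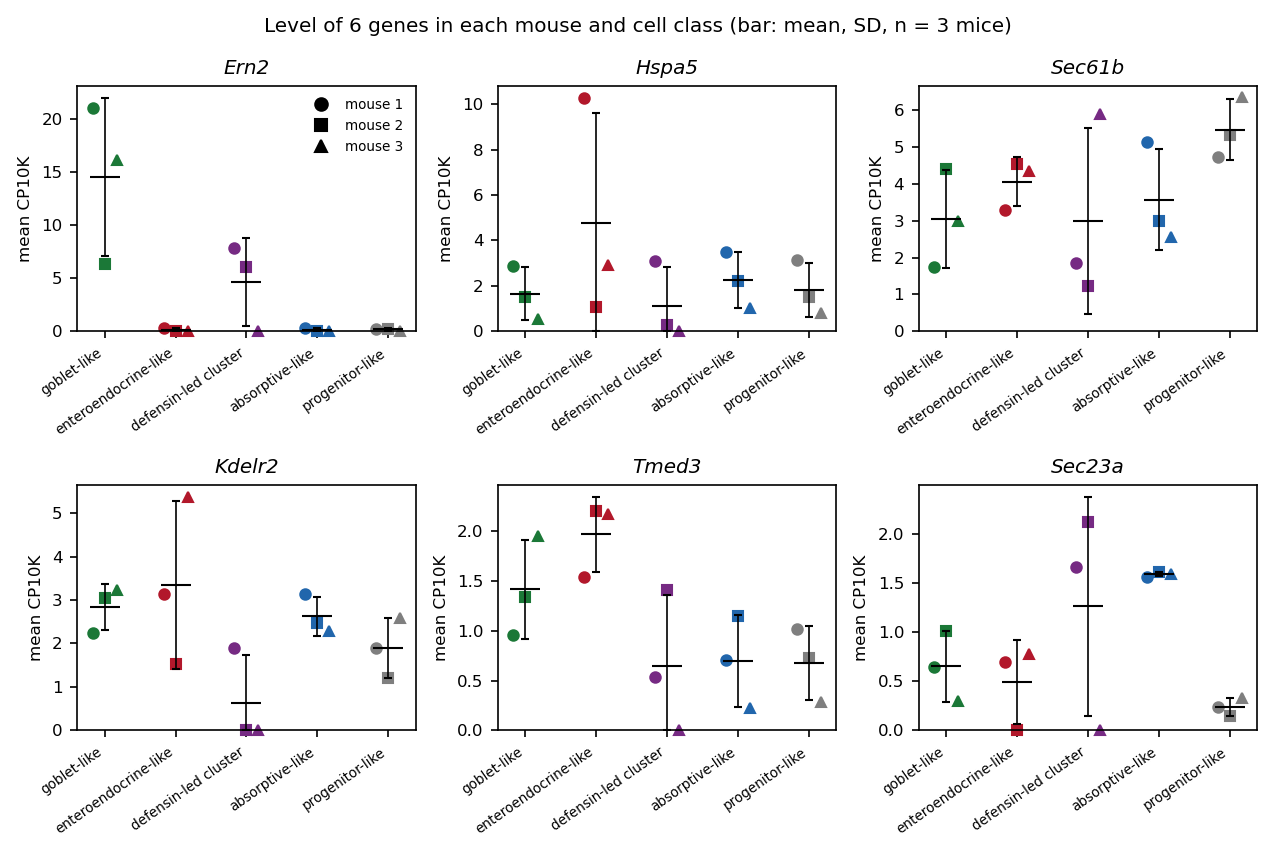
Mean CP10K of Ern2, Hspa5, Sec61b, Kdelr2, Tmed3 and Sec23a in each mouse (circle, square and triangle for mice 1, 2 and 3) and class, with the mean and SD over 3 mice. Ern2 is at 6.36 to 21.0 in goblet-like points and under 0.5 in absorptive-like, enteroendocrine-like and progenitor-like ones, Sec23a is at 1.57 to 1.61 in all absorptive-like points, and the Hspa5 mean of enteroendocrine-like cells rests on mouse 1.

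For the rest of the 51 genes, no goblet minus absorptive difference passed, and Ern2 was the one gene with an unadjusted p under 0.05, a threshold that 18.9% of all genes passed. The genes' median log2 difference was -0.34, beside -0.43 over all genes tested, and 17 estimates were above 0 and 34 below. In the enteroendocrine minus absorptive comparison limma called 0 of the 51, where 1.59% of all genes were higher and 4.64% lower. At an unadjusted p under 0.05 there were 5 of the 51 (9.8%), beside 18.7% of all genes. The median there was 0.20 against -0.18 over all genes, with 29 estimates above 0 and 22 below. Both comparisons use the same absorptive-like cells.

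The entry machinery showed no class difference that passed in all cells. Sec61b, the small beta subunit of the translocation channel (GRCm38 chromosome 4, 47474658 to 47483242), had 1.74, 4.40 and 2.99 CP10K in goblet-like cells, 5.14, 3.00 and 2.56 in absorptive-like cells and 3.30, 4.53 and 4.34 in enteroendocrine-like cells. These groups overlapped, and the goblet minus absorptive estimate was -0.24 (SE 0.522, limma adjusted p = 0.844). Sec61a1, the pore subunit, had 4.06, 1.90 and 2.77 CP10K in goblet-like, 2.96, 2.12 and 2.02 in absorptive-like and 2.18, 5.20 and 3.29 in enteroendocrine-like cells, with estimates of 0.24 and 0.49 against absorptive-like cells (adjusted p = 0.854 and 0.686). Sec63, which helps pull chains through the channel, had the smallest p of the translocon genes in both comparisons (-0.67 and -0.98, adjusted p = 0.679 and 0.506).

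The 7 genes of the signal recognition particle and its receptor summed to 6.01, 6.70 and 6.36 CP10K in enteroendocrine-like cells, above the 4.37, 3.95 and 2.75 of absorptive-like cells and the 4.06, 3.85 and 1.62 of goblet-like cells. In cells of at least 5000 UMIs the enteroendocrine-like sums (3.91, 5.36 and 6.54) overlapped the absorptive-like (4.81, 5.23 and 3.33) and goblet-like ones (5.11, 4.02 and 2.68). Single genes of this group differed in direction. Srp14, a subunit that slows translation, had 2.31, 1.15 and 1.70 CP10K in enteroendocrine-like cells against 1.08, 0.898 and 0.975 in absorptive-like cells, while Srp19, which helps assemble the particle, had 0.528, 0 and 0 against 0.557, 0.830 and 0.298 (-1.25, adjusted p = 0.244). The zeros of Srp19 in mice 2 and 3 rest on 16 and 10 cells, where 3 UMIs would be 0.317 and 0.558 CP10K. Srp72 had the smallest p of the group between goblet-like and absorptive-like cells (-0.62, adjusted p = 0.688).

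Ssr1 to Ssr4 form the translocon-associated protein complex, which assists the channel. Their sum was 8.42, 10.4 and 6.98 CP10K in enteroendocrine-like, 4.55, 6.39 and 5.44 in goblet-like and 10.1, 4.85 and 4.26 in absorptive-like cells. The absorptive-like sums overlapped those of each other class, while every goblet-like sum lay below every enteroendocrine-like one. In the repeat with deeper cells only, the enteroendocrine-like (10.2, 10.6 and 5.8) and goblet-like sums (8.5, 9.0 and 8.5) overlapped. Ssr4 had 1.84, 3.19 and 3.33 CP10K in goblet-like, 2.69, 4.24 and 3.35 in enteroendocrine-like and 3.58, 1.90 and 2.35 in absorptive-like cells. Its estimates against absorptive-like cells were 0.09 and 0.39 (adjusted p = 0.946 and 0.771). Ssr3 had the smallest p of the complex, at -0.54 in goblet-like and 0.94 in enteroendocrine-like cells (adjusted p = 0.678 and 0.42), and -1.49 between goblet-like and enteroendocrine-like cells (adjusted p = 0.154).

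The signal peptidase genes summed to 7.15, 6.10 and 9.90 CP10K in enteroendocrine-like cells, above every value of the absorptive-like (5.75, 4.12 and 3.48) and goblet-like cells (2.69, 5.23 and 3.26), and the order was the same at 5000 UMIs or more (8.84, 8.72 and 10.2 against 6.32, 5.62 and 5.68 and 5.50, 6.64 and 5.54). Sec11a, a catalytic subunit, had 1.90, 0.648 and 2.07 CP10K in enteroendocrine-like, 0.911, 0.467 and 0.601 in absorptive-like and 0.360, 0.107 and 0.318 in goblet-like cells, and the goblet-like values lay below all others. Its goblet minus enteroendocrine estimate was -1.84 (SE 0.612, limma adjusted p = 0.0884) and its goblet minus absorptive estimate -0.91 (adjusted p = 0.471), so neither passed. Spcs2, an accessory subunit, had 3.12, 2.56 and 2.99 in enteroendocrine-like against 2.44, 1.15 and 1.16 in absorptive-like cells (0.87, adjusted p = 0.425).

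The folding genes were Hspa5 (the lumenal chaperone BiP), the disulfide isomerases Pdia3, Pdia4 and Pdia6, and Ostc, a subunit of the enzyme that attaches N-glycans. Their sum was 16.9, 12.4 and 15.3 CP10K in enteroendocrine-like cells (14.9 ± 2.27), above every absorptive-like (11.4, 6.37 and 4.83) and goblet-like value (6.97, 6.16 and 6.85). At 5000 UMIs or more the enteroendocrine-like sums (16.9, 12.4 and 17) again lay above the absorptive-like (12.3, 6.89 and 5.89) and goblet-like ones (9.95, 11.8 and 7.82), with 12.4 and 12.3 close to each other. All 5 estimates against absorptive-like cells were above 0, with a median of 1.01, and none passed. Hspa5 had 10.3, 1.07 and 2.90 CP10K in enteroendocrine-like, 3.49, 2.22 and 1.05 in absorptive-like and 2.88, 1.53 and 0.544 in goblet-like cells. The highest value came from mouse 1, and within it from the posterior sample (19.3 CP10K, against 5.47 in the anterior one). The Hspa5 estimate was 0.63 in enteroendocrine-like cells (SE 0.616, adjusted p = 0.645) and -0.50 in goblet-like cells (adjusted p = 0.727). Pdia3, which folds glycoproteins, had 2.59, 4.20 and 6.22 CP10K in enteroendocrine-like against 2.13, 1.71 and 1.69 in absorptive-like cells and did not overlap. Pdia4 had the smallest p of the group (1.09, adjusted p = 0.407), and in goblet-like cells Ostc did (-0.65, adjusted p = 0.723).

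Hspa5 and Pdia6 are shown by sequence because theirs were the 2 promoters of these genes with a complete ER stress response element (ERSE), CCAAT and CCACG held 9 bases apart, which stress-activated factors are known to bind. Each line gives the 150 bases before the start site in RefSeq's GRCm38.p6 annotation, 5′ to 3′ on the gene's strand, with the CCAAT and CCACG parts in capitals. The element begins 65 bases before the start in Hspa5 (chr2:34771940-34772089, plus strand) and 98 bases before it in Pdia6 (chr12:17266439-17266588, plus strand).
Hspa5: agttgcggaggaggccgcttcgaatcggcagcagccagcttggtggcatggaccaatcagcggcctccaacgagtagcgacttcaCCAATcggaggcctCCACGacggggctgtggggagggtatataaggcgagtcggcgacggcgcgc
Pdia6: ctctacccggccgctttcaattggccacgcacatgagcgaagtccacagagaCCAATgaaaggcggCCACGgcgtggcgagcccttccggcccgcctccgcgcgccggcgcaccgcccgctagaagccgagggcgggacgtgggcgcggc
Both strands of the window from 250 bases before to 50 bases after the start were searched, in the 40 of 51 genes with an entry. The ERSE was in 2 of the 40 (5.0%), in 10 of 4081 genes with an entry that both tables listed (0.245%) and in 37 of 27025 genes in all (0.137%). ERSE-II (ATTGG, any base, CCACG) was in 0 of the 40. A match describes the letters only.

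The 9 genes of the COPII coat, which buds vesicles from the ER, summed to 9.96, 10.9 and 10.3 CP10K in absorptive-like cells (10.4 ± 0.462), and every goblet-like (7.62, 6.80 and 4.5), enteroendocrine-like (6.34, 4.33 and 6.37) and progenitor-like value (4.54, 5.60 and 4.65) was lower, as a sum that was not tested. At 5000 UMIs or more the sums were 9.6, 9.65 and 9.16 in absorptive-like, 5.37, 4.47 and 3.34 in goblet-like and 7.45, 4.08 and 5.48 in enteroendocrine-like cells, again without overlap. Not every gene followed the sum: Sec13, for one, had 1.66, 1.20 and 0.754 CP10K in absorptive-like and 0.829, 1.89 and 1.00 in goblet-like cells. In both comparisons with absorptive-like cells 8 of 9 estimates were below 0, with a median of -0.70 in goblet-like and -1.09 in enteroendocrine-like cells. The medians over all genes tested, given above, were also below 0 in both comparisons, and the COPII medians were not tested against them. No COPII gene passed in all cells. Sec23a (GRCm38 chromosome 12, 58958383 to 59012017), an inner coat subunit, had 1.57, 1.61 and 1.60 CP10K in absorptive-like, 0.647, 1.02 and 0.296 in goblet-like and 0.694, 0 and 0.778 in enteroendocrine-like cells, with no overlap. Its estimates were -1.16 (SE 0.796, limma adjusted p = 0.483) and -1.68. Sec24a, which selects cargo, had 0.594, 1.04 and 1.22 in absorptive-like against 0.105, 0.256 and 0 in enteroendocrine-like cells (-1.88, SE 0.606, limma adjusted p = 0.0656). Sec22b, a membrane fusion protein of these vesicles, had 0.795, 1.44 and 0.820 against 0.698, 0.0464 and 0.264 (-1.34).

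Sec24c and Sec24d, cargo-selecting subunits of the same coat, illustrate the core ACGTG, a sequence known to be bound by the stress factor XBP1. They were 2 of the 4 COPII genes with ACGTG in the 150 bases before their start. The core, in capitals, begins 75 bases before the start in Sec24c (chr14:20674171-20674320, plus strand) and 24 bases before it in Sec24d (chr3:123267346-123267495, plus strand).
Sec24c: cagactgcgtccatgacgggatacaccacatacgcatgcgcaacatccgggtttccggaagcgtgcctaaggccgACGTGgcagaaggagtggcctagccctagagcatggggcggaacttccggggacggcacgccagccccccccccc
Sec24d: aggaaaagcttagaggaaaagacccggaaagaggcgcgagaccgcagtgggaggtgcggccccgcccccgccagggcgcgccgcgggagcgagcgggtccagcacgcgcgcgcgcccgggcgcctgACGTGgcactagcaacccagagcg
ACGTG on either strand was in 25 of the 40 promoters (62.5%), against 30.9% of the genes in both tables and 21.8% of all genes. By role it was in 7 of 9 COPII, 5 of 6 COPI, 3 of 4 p24 and 2 of 4 translocon genes. CCACG, which overlaps ACGTG in CCACGTG, was in 26 of the 40 (65.0%), against 54.1% and 35.5%. No test of these shares was made, and their relation to the class levels was not tested.

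Tmed3, a p24 protein that binds cargo in ER-Golgi vesicles (GRCm38 chromosome 9, 89699206 to 89705068), had 1.54, 2.20 and 2.17 CP10K in enteroendocrine-like, 0.962, 1.34 and 1.95 in goblet-like and 0.710, 1.15 and 0.225 in absorptive-like cells. The enteroendocrine-like values lay above all absorptive-like ones. Its estimates of 1.42 and 0.96 did not pass in all cells (adjusted p = 0.243 and 0.483). Tmed4 had 0.466, 0.308 and 0.244 CP10K in goblet-like cells, below every absorptive-like (1.06, 0.781 and 0.691) and enteroendocrine-like value (1.32, 1.58 and 0.988), and its goblet minus enteroendocrine estimate was -1.47 (adjusted p = 0.219). The 6 COPI genes summed to 9.79, 9.48 and 8.52 in goblet-like cells, below the 10.7, 13.5 and 12.2 of absorptive-like cells, and to 11.6, 15 and 4.68 in enteroendocrine-like cells. Copg1 had the smallest p of the COPI genes in goblet-like cells (-0.74, adjusted p = 0.65) and Copz1 in enteroendocrine-like cells (-1.27, adjusted p = 0.407).

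Of the KDEL receptors, Kdelr1 had 1.36, 1.73 and 1.28 CP10K in goblet-like, 1.59, 0.499 and 1.12 in enteroendocrine-like and 2.51, 1.77 and 2.54 in absorptive-like cells, where all 3 values were higher. Its estimates were -0.57 and -1.05 (adjusted p = 0.663 and 0.357). Kdelr2 had 2.23, 3.05 and 3.22 in goblet-like, 3.13, 1.53 and 5.38 in enteroendocrine-like and 3.13, 2.48 and 2.28 in absorptive-like cells, which overlapped (0.10 and 0.18, adjusted p = 0.952 and 0.924). Kdelr3 was not analysed here.

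Counted by direction, 2 of the 51 genes (Ern2 and Tmed3) were higher in goblet-like than in absorptive-like cells in each of the 3 mice and 15 were lower, where 10.1% and 40.8% of all genes tested were. In enteroendocrine-like cells 7 were higher in each mouse (Pdia3, Sec11a, Spcs2, Spcs3, Srp14, Tmed3 and Tmed4) and 9 lower, 5 of them COPII genes, where 14.2% and 24% of all genes were. Between goblet-like and enteroendocrine-like cells 4 were higher and 18 lower, beside 14.9% and 27.2%. The 18 included Pdia3, Pdia4, Pdia6, Ostc, Sec61b and 3 of the 4 genes of the translocon-associated complex. Against absorptive-like cells, the defensin-led cluster had 1 higher (Sec11c) and 13 lower, beside 5.52% and 28.0% of all genes, and goblet-like cells had 13 higher and 1 lower (Ssr3) than that cluster, beside 21.5% and 13.6%.

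The goblet minus enteroendocrine estimates of the genes followed throughout were -1.13 for Hspa5, -0.47 for Sec61b, -0.25 for Sec61a1, -0.30 for Ssr4, 0.48 for Kdelr1 and -0.08 for Kdelr2 (limma adjusted p from 0.329 for Hspa5 to 0.963 for Kdelr2). Of the remaining roles, Sec24a (1.38, adjusted p = 0.209), Srp14 (-1.23, adjusted p = 0.321) and Copz1 (0.94, adjusted p = 0.533) had the smallest p. Ssrp1, the chromatin factor matched by name, had 1.38, 0.984 and 1.33 CP10K in progenitor-like against 0.555, 0.294 and 0.427 in absorptive-like cells, and estimates of -0.96 in goblet-like and -0.17 in enteroendocrine-like cells (adjusted p = 0.485 and 0.925). Cope, a COPI subunit, had 3.09, 3.46 and 3.14 CP10K in goblet-like, below the 4.69, 4.38 and 4.75 of absorptive-like cells (-0.49, adjusted p = 0.667), and 3.96, 6.44 and 2.65 in enteroendocrine-like cells (adjusted p = 0.905). The other members (Sec61g, Sec62, Srp9, Srp68, Srpr, Srprb, Ssr1, Ssr2, Sec11c, Spcs1, Spcs3, Pdia6, Sec13, Sec23b, Sec24b, Sec24c, Sec24d, Sec31a, Tmed2, Tmed7, Tmed9, Tmed10, Copa, Copb1 and Copb2) ranged from -0.82 to 0.54 in the goblet minus absorptive and from -1.20 to 1.14 in the enteroendocrine minus absorptive comparison of all cells, and none passed.

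Related pathway genes outside the 51 were tested in the same fit. Agr2, a disulfide isomerase known for mucin folding, had 15.3, 33.8 and 28.6 CP10K in goblet-like, 8.15, 21.1 and 12.8 in enteroendocrine-like and 0.632, 1.89 and 1.42 in absorptive-like cells. It rose by 4.13 in goblet-like and 3.23 in enteroendocrine-like cells over absorptive-like ones (limma adjusted p = 2.41e-05 and 0.000467). Txndc5, another isomerase, rose by 3.11 in goblet-like cells (4.62, 3.71 and 4.25 against 0.582, 0.260 and 0.163 CP10K, adjusted p = 0.00604) and was also higher there than in enteroendocrine-like cells (2.86, adjusted p = 0.0175). These were 2 of 27 chaperones and folding enzymes higher in goblet-like cells, with 0 lower, beside 1.99% of all genes higher and 4.47% lower, and Agr2 was the 1 chaperone higher in enteroendocrine-like cells. Goblet-like cells also had more Agr2 (2.13, adjusted p = 0.0228) and more of the traffic genes Arfgap1 (2.41, adjusted p = 0.0228) and Ergic1 (2.03, adjusted p = 0.0264) than the defensin-led cluster, and less Creb3l3 (-2.50, adjusted p = 0.00988).

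Of 27 genes of the unfolded protein response and ER degradation, 1 rose and 1 fell in both goblet-like and enteroendocrine-like cells. Creb3l1, a membrane-bound transcription factor of the secretory response, had 3.98, 3.36 and 3.64 CP10K in goblet-like, 1.86, 5.59 and 1.99 in enteroendocrine-like and 0.116, 0.0726 and 0.0223 in absorptive-like cells (3.85 and 3.47, adjusted p = 0.00128 and 0.00309). Creb3l3, its relative known from liver and intestinal lipid metabolism, had 7.84, 16.9 and 23.0 in absorptive-like against 1.13, 1.69 and 1.51 in goblet-like cells (-3.18, adjusted p = 0.000496) and 0.854, 0.397 and 0.383 in enteroendocrine-like cells (-4.36, adjusted p = 1.01e-05). Limma called 0 of 10 oligosaccharyltransferase and 0 of 47 other ER-Golgi traffic genes in either comparison. At an unadjusted p under 0.05 there were 0 and 7 in goblet-like and 2 and 8 in enteroendocrine-like cells, and the shares of traffic genes (14.9% and 17%) were no higher than those of all genes (18.9% and 18.7%).

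In the defensin-led cluster limma called 0 of the 51 genes against absorptive-like cells, with 10 (19.6%) at an unadjusted p under 0.05, beside 20.3% of all genes. After adjustment 0.459% of all genes were higher and 0.573% lower. Ern2 had an estimate of 2.71 (adjusted p = 0.093), Kdelr2 -2.68 (adjusted p = 0.0501), Sec22b -2.12 (0.0766), Hspa5 -1.71 (0.139) and Srp19 -1.45 (0.175). Kdelr2 had 1.89, 0 and 0 CP10K there, and 3 UMIs would be 1.09 and 2.79 CP10K in mice 2 and 3, so the zeros rest on 26 and 15 shallow cells. Goblet-like cells had 2.23, 3.05 and 3.22 CP10K, and the fitted difference, which depends on these zeros and the pseudocount, was 2.78 (SE 0.67, limma adjusted p = 0.0182, beside 2.29% of all genes higher and 2.92% lower). That call was lost without mouse 2 (2.16, adjusted p = 0.157), without mouse 3 (2.12, adjusted p = 0.172) and with units weighted by their spread (1.63, adjusted p = 0.225). Sec61g, the gamma subunit of the channel, had 0 UMIs in all 3 mice of this cluster, where 3 UMIs would be 0.110, 1.09 and 2.79 CP10K, so at this depth its absence was not measurable in mice 2 and 3. The remaining fixed genes gave -0.47 for Sec61b, -0.47 for Ssr4, -0.18 for Kdelr1 and 0.01 for Sec61a1. In goblet-like cells against this cluster they were 2.61 for Ern2 (adjusted p = 0.0682), 1.21 for Hspa5, 0.56 for Ssr4, -0.39 for Kdelr1, 0.22 for Sec61b and 0.22 for Sec61a1. Of the other roles there, Sec62 (2.25, adjusted p = 0.113), Tmed2 (1.57, adjusted p = 0.168), Pdia6 (1.40, adjusted p = 0.19), Sec22b (1.32, adjusted p = 0.223), Srp19 (1.06, adjusted p = 0.308), Copg1 (-1.31, adjusted p = 0.309), Ssr3 (-1.03, adjusted p = 0.323) and Spcs3 (-0.94, adjusted p = 0.457) had the smallest p. Against absorptive-like cells these were Sec61g (-1.40, adjusted p = 0.13), Copa (-1.23, adjusted p = 0.282), Tmed9 (-1.05, adjusted p = 0.332) and Sec11a (-1.0, adjusted p = 0.356).

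When cells under 5000 UMIs were left out, more of the genes passed. There were 510 absorptive-like (162, 180 and 168), 142 goblet-like (95, 21 and 26) and 29 enteroendocrine-like cells (15, 9 and 5), and 50 of the 51 genes passed the filter on low values among 5081. In goblet-like cells Ern2 and Tmed3 rose and Sec23a fell against absorptive-like cells, beside 2.89% of all genes higher and 17% lower. Ern2 had 6.88, 0.885 and 1.59 CP10K against 0.119, 0.0817 and 0.0404 (3.10, limma adjusted p = 0.000245), and passed without each mouse in turn. Tmed3 had 1.88, 1.10 and 2.04 against 0.766, 0.734 and 0.303 (1.25, adjusted p = 0.0479). Sec23a had 0.214, 0.491 and 0.336 against 1.19, 1.34 and 1.75 (-1.59, adjusted p = 0.0186). The Tmed3 and Sec23a calls were lost without any of the 3 mice: adjusted p = 0.179, 0.0698 and 0.318 for Tmed3 and 0.106, 0.0617 and 0.121 for Sec23a without mice 1, 2 and 3.

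Enteroendocrine-like cells of that depth had 2 genes higher and 5 lower than absorptive-like cells, beside 5.16% and 14.3% of all genes. Tmed3 had 3.20, 3.92 and 3.88 CP10K against 0.766, 0.734 and 0.303 (2.33, limma adjusted p = 0.000798), and Sec23a 0.119, 0 and 0 against 1.19, 1.34 and 1.75 (-2.78, adjusted p = 0.000322). These 2 passed without each mouse in turn. Pdia3 had 4.01, 4.58 and 5.84 against 2.38, 1.63 and 1.5 (1.31, adjusted p = 0.0151), and passed without mouse 1 but not without mouse 2 or 3 (adjusted p = 0.101 and 0.142). Tmed7 fell by 2.02, Srp19 by 1.60, Sec13, an outer COPII subunit, by 1.58 and Kdelr1 by 1.32 on the log2 scale (adjusted p = 0.00552, 0.0397, 0.018 and 0.0348). Without mouse 1, Tmed7 and Sec13 no longer passed (adjusted p = 0.054 and 0.062). Without mouse 2, Sec13, Srp19 and Kdelr1 did not (0.168, 0.311 and 0.134), and without mouse 3, Srp19 and Kdelr1 did not (0.156 and 0.263). Mice 2 and 3 gave only 9 and 5 of these enteroendocrine-like cells.

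Between goblet-like and enteroendocrine-like cells of at least 5000 UMIs, Ern2 (3.22, adjusted p = 0.000454) and Tmed7 (1.67, adjusted p = 0.0232) were higher in goblet-like cells, and Tmed4 (-2.07), Sec11a (-1.95) and Pdia3 (-1.18) lower, beside 3.76% and 11.6% of all genes. Tmed4 had 0.431, 0.366 and 0.104 CP10K in goblet-like and 1.02, 2.81 and 1.98 in enteroendocrine-like cells. Sec11a had 0.632, 0.260 and 0.382 against 4.47, 1.15 and 1.84. Ern2 passed without each mouse in turn. Tmed7 and Pdia3 were lost without any mouse (Tmed7: adjusted p = 0.0778, 0.183 and 0.0618; Pdia3: 0.0623, 0.152 and 0.128), Sec11a without mouse 1 (0.0573), and Tmed4 without mouse 2 or 3 (0.0787 and 0.108).

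Fitted with the 2 classes alone at that depth, which estimates the spread from them only, goblet minus absorptive gave 10 calls. Ern2, Tmed3, Pdia6 (1.13) and Sec11c (0.98) were higher, and Sec23a, Tmed4 (-1.31), Sec13 (-1.17), Sec24a (-1.11), Sec31a (-0.96) and Sec22b (-0.95) lower, so that 5 of the 6 lower ones were COPII genes, beside 5.09% of all genes higher and 32.1% lower. The enteroendocrine minus absorptive fit kept Tmed3, Sec23a and Tmed7 (beside 2.93% and 9.31%), and the goblet minus enteroendocrine fit Ern2 and Sec11a (beside 2.12% and 4.48%).

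**Figure D3:**
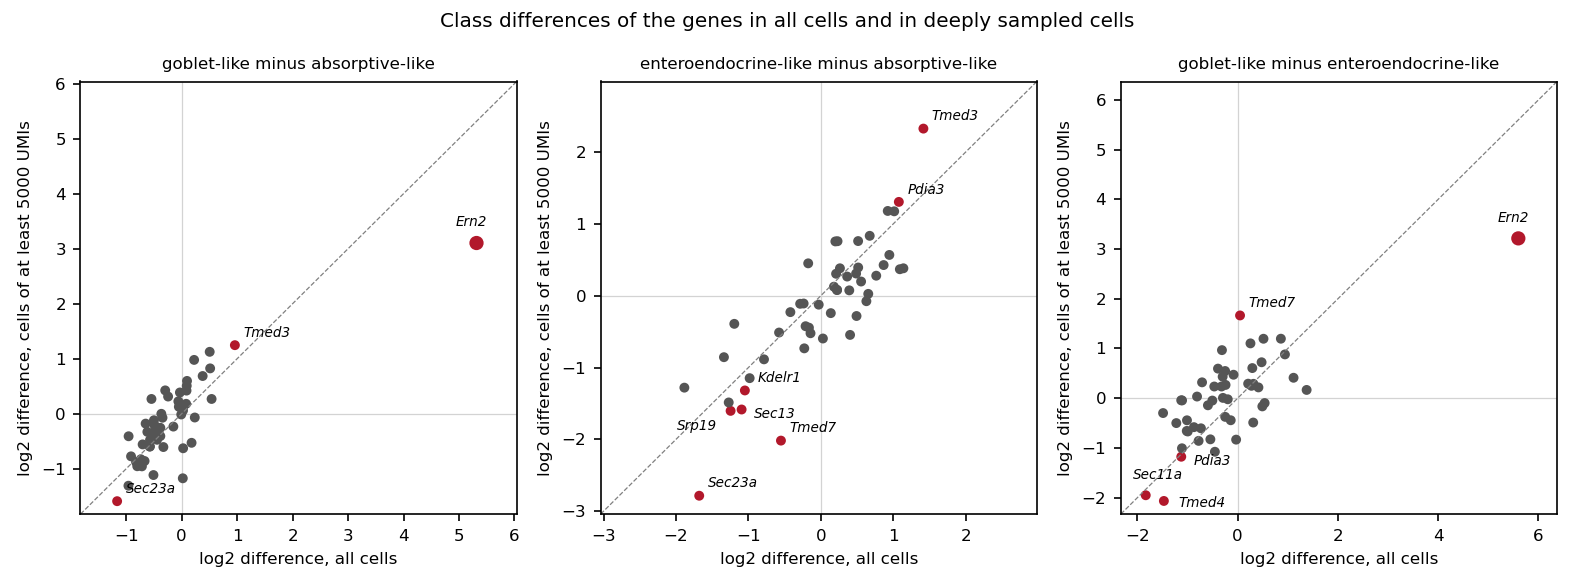
Log2 difference of each gene between classes in all cells (x) and in cells of at least 5000 UMIs (y), for 3 class comparisons. Red points passed in the deeply sampled cells, larger red points in all cells too, and the dashed line marks equal differences. Ern2 lies below the line in both panels that hold goblet-like cells, at 3.10 against 5.32 and at 3.22 against 5.60.

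Depth also separated cells within a class. In goblet-like cells, 142 of at least 5000 UMIs were compared with the other 470 in the same mice, a comparison added after the data were seen. Of 49 genes tested, 7 were higher in the deep cells (Sec61b, Pdia6, Sec11c, Kdelr2, Ostc, Ssr3 and Ssr4) and Ern2 was lower, beside 1.88% and 9.07% of 4213 genes. Their median was 0.57, against -0.35 over all genes. Ern2 had 6.88, 0.885 and 1.59 CP10K in deep and 24.3, 10.2 and 31.3 in shallow cells of mice 1, 2 and 3 (-3.06, SE 0.369, limma adjusted p = 3.84e-14). Limma pooled the spread over all genes here, so this p rests on more than the 3 pairs.

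Sec61b had 4.89, 9.10 and 4.31 CP10K in deep and 1.02, 1.12 and 1.61 in shallow goblet-like cells (2.07, SE 0.469, adjusted p = 0.000407). Pdia6 had 2.30, 3.77 and 2.15 against 0.946, 0 and 0.532 (2.37, adjusted p = 0.00206), Sec11c 2.08, 2.27 and 1.81 against 0.513, 0.198 and 0 (2.55, adjusted p = 0.0026) and Kdelr2 4.75, 5.84 and 4.18 against 1.66, 1.09 and 2.22 (1.5, adjusted p = 0.0178). The values of these 4 genes did not overlap between deep and shallow cells, but the genes were picked by their calls in this same comparison. The share of all genes without overlap was not counted. The sum without Ern2 was 67.9, 72.2 and 53.4 in deep and 48.5, 45.3 and 37.5 in shallow cells. Without mice 1, 2 and 3 in turn 5, 2 and 4 genes passed in place of 8. Ern2 was among them each time, Sec61b and Pdia6 were lost without mouse 2, Sec11c without mouse 3, Kdelr2 without mouse 1 or 2 and Ostc without mouse 2 or 3, and Ssr3 and Ssr4 without any mouse. Agr2 rose with depth too (3.31, adjusted p = 1.28e-28).

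In absorptive-like cells Spcs2, Spcs1, Sec61b, Srp14 and Srp19 were higher in the 510 deep than in the 400 shallow cells, by 1.64, 1.33, 1.17, 1.20 and 1.27 (limma adjusted p = 0.00986, 0.0198, 0.0161, 0.0399 and 0.043), beside 8.16% of all genes higher and 13.5% lower. None of the 51 genes passed without mouse 2 or without mouse 3, and 11 did without mouse 1. Sec61b had 5.46, 4.52 and 3.97 CP10K in deep and 3.80, 1.42 and 1.31 in shallow absorptive-like cells.

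Other measures moved with depth. Malat1, a nuclear RNA, had 67.0, 1.87 and 7.65 CP10K in deep and 176.9, 175.0 and 144.4 in shallow goblet-like cells, and 13.2, 6.89 and 7.05 against 160.6, 207.6 and 262.0 in absorptive-like cells. Deep and shallow goblet-like cells also came from different clusters: 110 of the 142 deep cells were of cluster 7, and 254 and 203 of the 470 shallow ones were of clusters 2 and 4. In absorptive-like cells cluster 1 held 355 of the 400 shallow but 5 of the 510 deep ones. Of the goblet markers, Zg16 had 1625, 2267 and 2497 CP10K in deep and 435.1, 456.8 and 538.0 in shallow goblet-like cells, and Muc2 was at 431.6, 321.9 and 414.7 in deep and 474.6, 453.0 and 410.6. The absorptive markers Apoa1 (12.98, 10.93 and 15.29 against 45.25, 61.6 and 65.71) and Fabp1 (6.96, 4.88 and 3.59 against 23.4, 14.7 and 12.8) were lower in the deep cells. Transcript length moved with the difference as well: across the genes Spearman's rho between length and the deep minus shallow difference was -0.37 in goblet-like and -0.67 in absorptive-like cells, beside -0.27 and -0.36 across all genes tested, a description over genes that share their cells. The part of these measures in the results was not tested. Of the goblet-like cells 46, and of the absorptive-like cells 56, had from 4000 up to 6000 UMIs, near the limit of 5000.

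**Figure D4:**
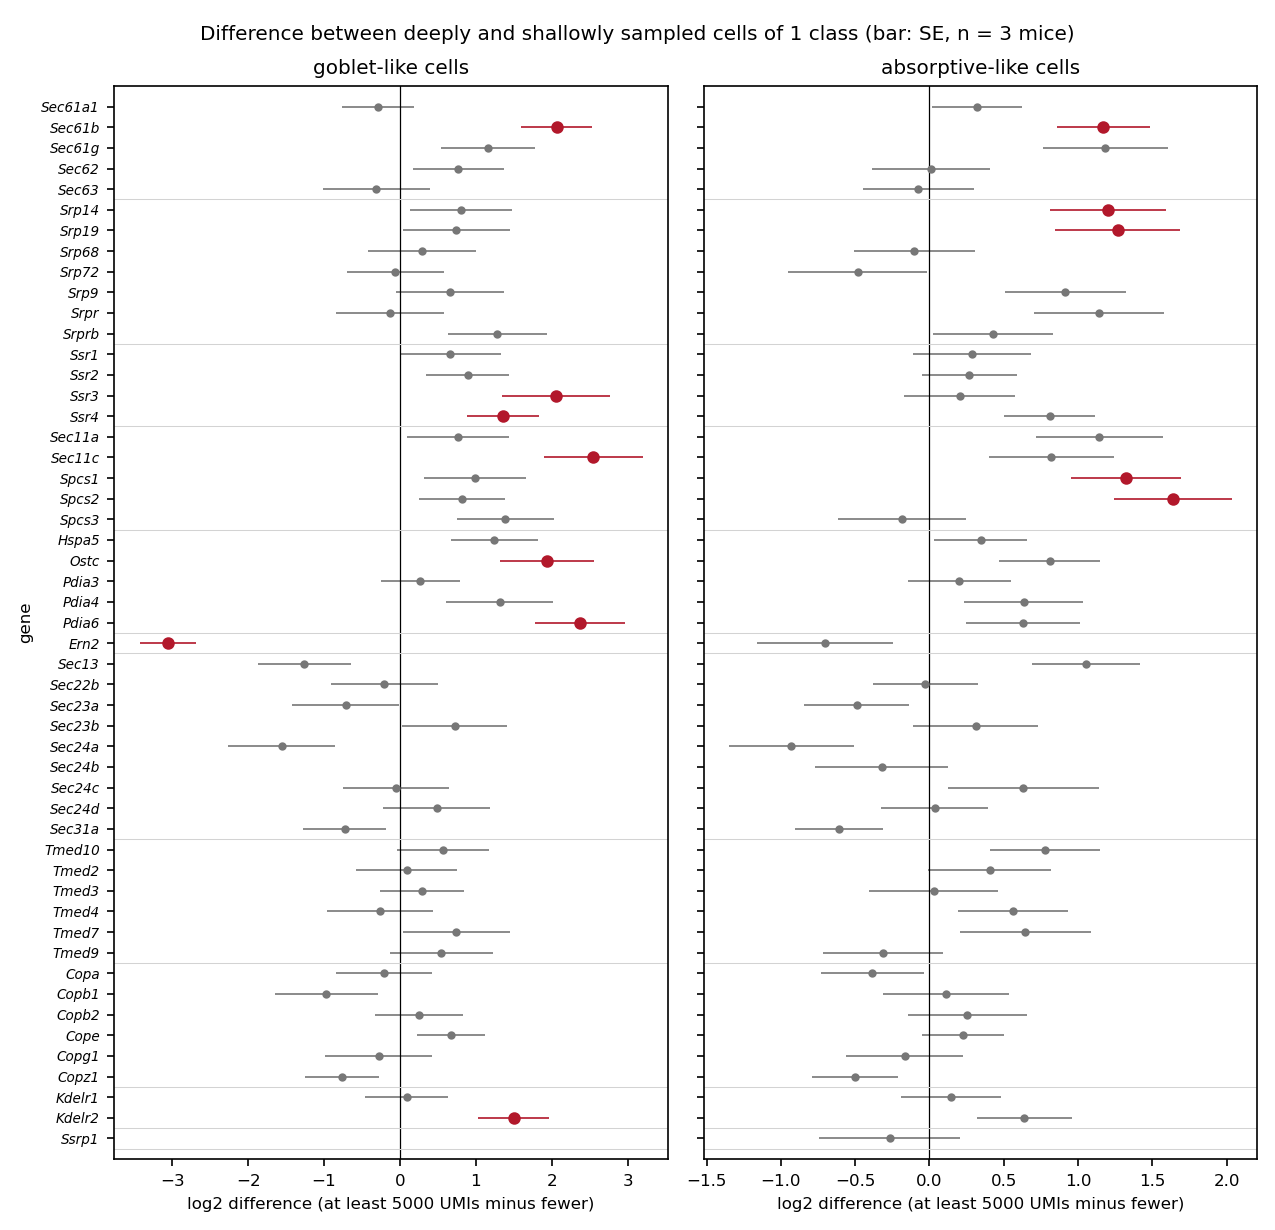
Deep minus shallow log2 difference of each gene in goblet-like and absorptive-like cells, where deep cells had at least 5000 UMIs, with standard errors from limma. Ern2 is the lowest goblet-like value at -3.06, and Sec11c, Pdia6 and Sec61b are among the highest at 2.55, 2.37 and 2.07.

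No difference between regions passed. Between anterior and posterior jejunum limma called 0 of 50 genes in absorptive-like cells and 0 of 49 in goblet-like cells, and 0.0% of all 5003 and 4243 genes. At an unadjusted p under 0.05 there were 0 and 2 of these genes, and 183 and 147 of all genes. The smallest p in absorptive-like cells were those of Sec31a (0.60), Hspa5 (-0.83) and Tmed3 (-0.84), each at an adjusted p of 1.0, and in goblet-like cells those of Copz1 (1.37), Sec13 (1.42) and Pdia3 (-1.25), each at 0.998. Ern2 had 19.3, 5.98 and 20.3 CP10K in anterior and 22.4, 6.91 and 11.8 in posterior goblet-like cells of mice 1, 2 and 3, so the mice differed more than the regions. The goblet minus absorptive difference itself did not pass for a difference between regions in any of 51 genes (smallest p for Sec31a at -1.39, Copz1 at 1.42 and Ssr2 at -1.25, adjusted p = 0.998), nor in any of 4915 genes. With 3 mice, and with the pairing by mouse left out of the anterior minus posterior fits, no gene at all was called here. Differences of the pathway genes between regions may therefore have gone undetected. The absorptive-like class was made of different clusters in the regions, cluster 9 mostly of anterior and cluster 3 mostly of posterior cells.

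**Figure D5:**
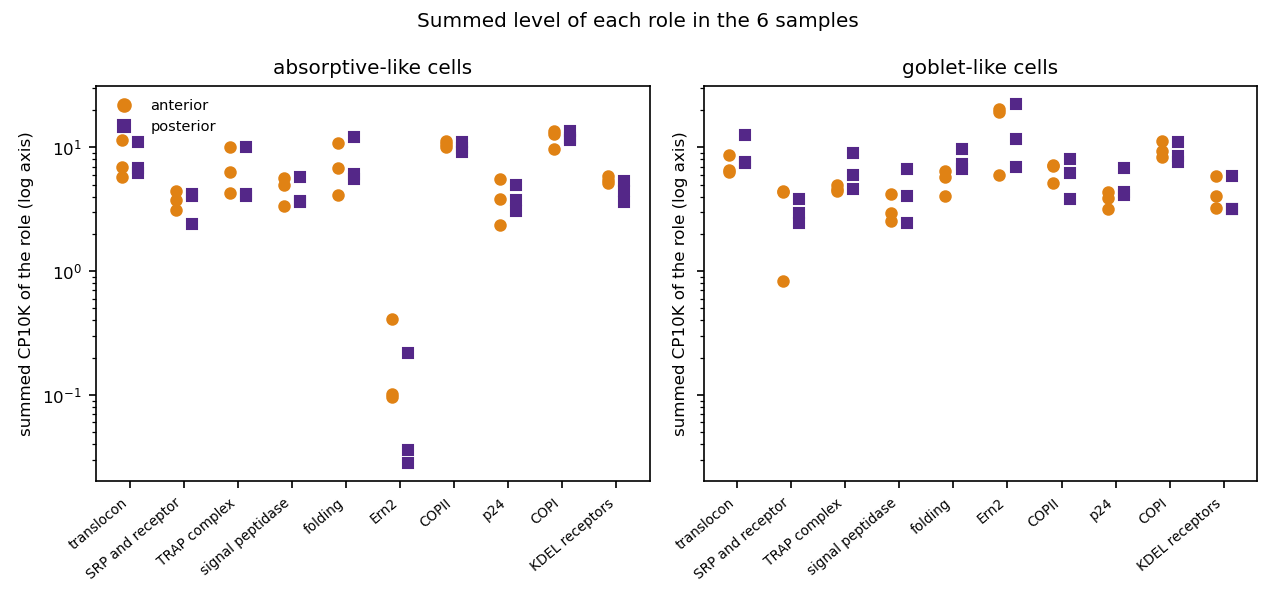
Summed CP10K of each role (log axis) in the 3 anterior (circles) and 3 posterior samples (squares), for absorptive-like and goblet-like cells. Anterior and posterior points of a role overlap in most roles, and Ern2 lies between 5.98 and 22.4 in goblet-like but under 0.5 in absorptive-like samples.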

How the data were processed

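MARS-seq libraries of 6 samples (3 mice, 2 regions) were used. The authors deposited corrected log2 values, 1 table of genes by cells per region; the submitters' processing notes list R 3.5.1, STAR 2.6.1b, cutadapt 1.18, bcl2fastq and UMI-tools 1.0.0, and the build GRCm38/mm10. Filters before deposit are not given in the sources used here. Each deposited value was log2(UMI/size factor + 1) with linear corrections per gene: an offset for each pool of cells and a slope on covariates of the cell. Undoing these gave whole UMIs for 100.0% of values (tolerance 0.01). The values used here are therefore not corrected for the pool, and no fit included it. The number of columns without a sample was 0, and within a pool 0 cell barcodes were shared. Depth is given per sample in the results; the median cell had 2741 to 8425.5 UMIs.

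Totals were taken over the 5674 shared genes, with 98.0% of the UMIs. Cells were clustered with scanpy 1.11.5 (1500 variable genes, 25 components, 15 neighbours, Leiden at resolution 1, 12 clusters). No doublet caller was run, since cells were sorted singly into wells. Mean CP10K per class and mouse was taken as log2(mean + 0.2), and 5 classes in 3 mice were fitted with limma 3.58.1 (eBayes with trend, class and mouse) after genes averaging under 0.2 CP10K were removed. P-values were adjusted by Benjamini-Hochberg over all genes of a fit, and a call means under 0.05. Regions were compared over 3 against 3 samples without the mouse as block. Samples of the same mouse pair the regions, per the labels' titles. In absorptive-like cells their deviations from the region means correlated at 0.597, 0.117 and 0.392 over 5003 genes in mice 1, 2 and 3. Between samples of different mice the values ran from -0.531 to 0.368, the latter for anterior mouse 3 with posterior mouse 2. Gene positions are from GENCODE vM21 and promoters from RefSeq (GRCm38.p6). The fits were tested on simulated data. The genes, lists and tests were chosen with earlier results of these data known. Named genes are those called, Hspa5, Ern2, Sec61b, Sec61a1, Ssr4, Kdelr1 and Kdelr2 throughout, the smallest p of each role, and the called genes of the related lists with the largest change; other genes were added after their values were seen. Comparisons by depth, the limit of 5000 UMIs, the pairwise fits, the weights and the fits without clusters 4 and 10 were added after seeing the data. Other alternatives were the pseudocount, the filter, summed UMIs, totals without abundant genes, single regions, classes from marker UMIs and leaving out each mouse.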

Additional observations from a re-analysis of the deposited data

Results flagged for a closer look

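Genes that match by name but were listed in 1 table only took no part in the comparisons. Sec23ip, a partner of the COPII coat, had 123 UMIs in the anterior table, with 0.553, 0.161 and 0.262 CP10K in absorptive-like and 0.265, 0.172 and 0.780 in goblet-like cells of mice 1, 2 and 3. Tmed5, a p24 protein, had 141 UMIs in the anterior table. The unnamed cluster 12, which had 41 cells and was led by Sh2d6 and Reep5, also stood outside the comparisons, and its summed level of the 51 genes was 46.7 CP10K.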

How the results depend on the processing

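No called difference was reversed under the alternatives run. The number of the 51 genes called, 1 in goblet minus absorptive, was 3 at 5000 UMIs, 3 with array weights and 10 with the 2 classes alone at 5000 UMIs (added alternatives), and 0 to 1 without one mouse (1 at 5000 UMIs). In enteroendocrine minus absorptive, 0 became 1 with summed UMIs, 2 with 6 samples as units, 1 at 1000 UMIs, 7 at 5000 UMIs, 1 with array weights and 3 with the 2 classes alone at 5000 UMIs, and 6, 3 and 4 at 5000 UMIs without mice 1, 2 and 3. For the defensin-led cluster minus absorptive, 0 became 1 with a pseudocount of 0.05, 1 without the filter, 7 with summed UMIs, 6 with 6 samples as units, 1 at 1000 UMIs, 1 with array weights and 0 to 1 without one mouse. In goblet minus enteroendocrine, 1 became 2 in anterior cells, 0 with classes from marker UMIs, 2 at 1000 UMIs, 5 at 5000 UMIs, 2 with array weights, 2 with the 2 classes alone at 5000 UMIs, 0 to 1 without one mouse and 2 to 3 at 5000 UMIs without one mouse. For goblet-like cells minus the defensin-led cluster, 1 became 2 with summed UMIs, 2 with totals without abundant genes, 0 in posterior cells, 3 with 6 samples as units, 2 at 1000 UMIs, 0 with array weights and 0 to 1 without one mouse. Deep minus shallow counts without one mouse were 0 to 11 in absorptive-like (5 with all) and 2 to 5 in goblet-like cells (8 with all). The cause of these moves was not tested.

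With the mouse as replicate block, 0 genes of the pathway were called between regions in absorptive-like and 0 in goblet-like cells, as without it, while over all genes 2 were higher and 2 lower in absorptive-like cells; the block changed no other call. Class comparisons gave 1, 0, 0, 1 and 1 calls without the block, as with it. Few cells limit the values: enteroendocrine-like cells of mice 2 and 3 (16 and 10) and the defensin-led cells of mouse 3 (15, with 10749 UMIs) leave many genes at a handful of UMIs. P-values of the class comparisons measure how class differences varied between 3 mice, with the spread shared over the classes of the fit and, by limma, over genes. Those of the region comparisons measure the spread between samples of a region, with the pairing by mouse left out.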

Other observations

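At 5000 UMIs or more, 8 of 47 other ER-Golgi traffic genes were lower and 2 higher in goblet-like than in absorptive-like cells, where 17% and 2.89% of all genes were, so the lower count was at the share of all genes. Cideb, a protein of lipid droplets and lipoprotein particles, was lower by -1.86 on the log2 scale (limma adjusted p = 0.00825), and Sar1b, the GTPase that starts COPII coats and is known for chylomicron export, by -2.19 (adjusted p = 0.00159). The higher ones were Ergic1 (2.41, adjusted p = 0.00227) and Mia3, a receptor for bulky cargo (1.32, adjusted p = 0.0316). In enteroendocrine-like cells 8 traffic genes were lower and 0 higher, again with Cideb (-2.83, adjusted p = 0.000375) and Sar1b (-1.56, adjusted p = 0.0203), a count close to the 14.3% of all genes that were lower (5.16% were higher).

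Among 28 genes of the stress response and ER degradation, 5 were higher and 3 lower in enteroendocrine-like than in absorptive-like cells of that depth, beside the same 5.16% and 14.3% of all genes. Selenok (1.72, adjusted p = 0.0048), a membrane protein of ER degradation, and Creb3l1 (2.97, adjusted p = 0.000283) were among the higher ones, and Edem1, which sorts misfolded glycoproteins for degradation, was lower (-2.23, adjusted p = 0.00128). P4hb, an abundant disulfide isomerase, was lower in both goblet-like (-1.32, adjusted p = 0.00154) and enteroendocrine-like cells (-1.52, adjusted p = 0.000602). Both comparisons share the absorptive-like cells.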
